A study of Rattus norvegicus with 15 samples.

Results

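The livers described here came from rats with carbon tetrachloride (CCl4) cirrhosis that received eplerenone, a blocker of the mineralocorticoid receptor (MR), during the last weeks of injury, and they were compared with livers of healthy rats to describe what stayed abnormal under the blocker. The comparison took the 4 control columns and the 5 cirrhosis & eplerenone columns of the count table, 9 of its 14 sample columns, and every gene in it; the series has 15 labelled samples. Of 32623 genes listed, 21282 had at least 1 count and 14417 passed the filter on low counts and were tested, of which 13628 were protein coding.

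All animals were male Wistar rats. Rats of the cirrhosis & eplerenone group inhaled CCl4 and drank phenobarbital at 0.35 g/L for 12 weeks, and took eplerenone at 100 mg per kg body weight in hazelnut spread from week 8 to week 12. The cirrhosis group had the same CCl4 and phenobarbital without eplerenone. Livers were taken 7 to 10 days after the last CCl4. Control rats were left untreated, and whether they were fed the spread is not given in the sources used here, so in the comparison with control the effects of CCl4, phenobarbital and eplerenone, and possibly of the spread, cannot be told apart. The study chose livers for sequencing by their phenotype, that is by how successful the induction of cirrhosis, the eplerenone treatment or both had been, so the 5 treated livers were picked on outcome. It also left out 1 control that stood apart from the other 4 in a principal component analysis, so the spread among controls is that of animals kept for their likeness. That spread enters every call. For each gene the spread was estimated jointly over all 3 groups, the cirrhosis livers included. Numbers in front of the sample labels were 13 or 16 in controls and 15 or 20 in treated rats; what they stand for is not given, and they cannot be told apart from treatment.

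In toxic cirrhosis, hepatic stellate cells turn into myofibroblasts that lay down collagen and other matrix, while bile duct-like cells multiply, macrophages and lymphocytes gather in the scar, and hepatocytes lose part of their adult enzyme program. Matrix proteins are made as precursors, modified in the endoplasmic reticulum, crosslinked outside the cell by lysyl oxidases and broken down by metalloproteinases held in check by their inhibitors. MR is a steroid receptor that binds aldosterone and is best known for salt handling in the kidney. In whole tissue, more cells of a type and more RNA per cell cannot be told apart.

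Libraries held 16157491 to 21574767 counted reads. Levels are given in FPM, reads per 1e+06 of the library, that is counts scaled by library size and a trimmed-mean factor, which was 0.847 to 0.877 in controls and 0.925 to 1.40 in treated rats. Values are listed in the order of the labelled replicate numbers, 2 to 5 for controls and 1 to 5 for treated rats. Albumin took 10.1% to 11.1% of the reads in controls and 7.15% to 11.2% in treated livers. Summed over 5 hepatocyte genes (Alb, Apoa1, Ttr, Cps1 and F9), levels were 133000 to 147000 FPM in controls and 71400 to 129000 FPM in treated livers, lower without overlap. Alb made up most of this sum, with a mean of 122797 FPM in controls. Cps1 by itself overlapped, at 2405 to 3020 FPM in controls and 903 to 4040 FPM in treated livers, as did F9, given below. Of all tested genes, 4.46% were lower and 6.42% higher without overlap. T cell markers (Cd3e, Cd3d and Cd2) summed to 0.382 to 0.672 FPM in controls and 1.25 to 2.68 FPM in treated livers, higher without overlap. Cd3e by itself overlapped, at 0 to 0.244 FPM in controls and 0.125 FPM in treated replicate 2. B and plasma cell markers summed to 5.55 to 21.1 FPM in controls and 6.32 to 27.8 FPM in treated livers. Markers of red blood cells (Hbb and Alas2) summed to 161 to 537 FPM in controls and 90.6 to 1140 in treated livers, and 3 exocrine pancreas genes (Prss1, Cela1 and Cpa1) to 59.6 to 122 FPM in controls against 4.35 to 30.9 FPM. Msln, Upk3b and Lrrn4, markers of the mesothelium that covers the liver, summed to 4.40 to 8.79 FPM in controls and 9.26 to 39.9 FPM in treated livers. Their part in the results was not tested.

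A gene was called a differentially expressed gene (DEG) where the false discovery rate (FDR) of edgeR and that of DESeq2 were both under 0.05. Between cirrhosis & eplerenone and control, 750 genes were DEGs, which is 5.2% of those tested. Of these, 624 were higher (4.33%) and 126 lower (0.874%) under treatment, and 591 of the higher (4.1% of those tested) and 75 of the lower genes (0.52%) differed at least 2-fold. DESeq2 alone called 1523 genes (10.6%), and cirrhosis against control gave 2898 DEGs by both tools (20.1%). With libraries scaled by total counts alone, 1348 genes were called and the share that was higher rose from 83.2% to 95.03%, while the median of all genes moved to 0.32 on the log2 scale. The higher DEGs had a median log2FC of 2.17 and the lower ones of -1.18. The same 2 sets had medians of 2.59 and -1.10 between cirrhosis and control, a comparison that shares the control samples. Directly between cirrhosis & eplerenone and cirrhosis, the 624 genes had a median of -0.34 and the 126 genes of -0.14. The treated livers that chose both sets are also part of this comparison. These medians describe the sets and do not measure the effect of eplerenone.

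The treated rats were far from alike. Taking a 2-fold distance from the control mean, 12.7% of tested genes in replicate 2 and 14.5% in replicate 4 lay outside it, against 19.0%, 24.7% and 29.6% in replicates 1, 5 and 3. Single controls lay at 6.81% to 9.49% and cirrhotic rats without eplerenone at 15.5% to 40.1%. On the first principal component of the 500 most variable genes (64.8% of the variance), controls sat between 30.2 and 37.3, and treated rats spread from 4.43 (replicate 2) to -60.8 (replicate 3). Even so, the rat nearest to control had 547 of the 624 higher DEGs above every control and 121 of the 126 lower DEGs below every control; these rats chose the DEGs, so the counts describe the spread and test nothing.

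**Figure D1:**
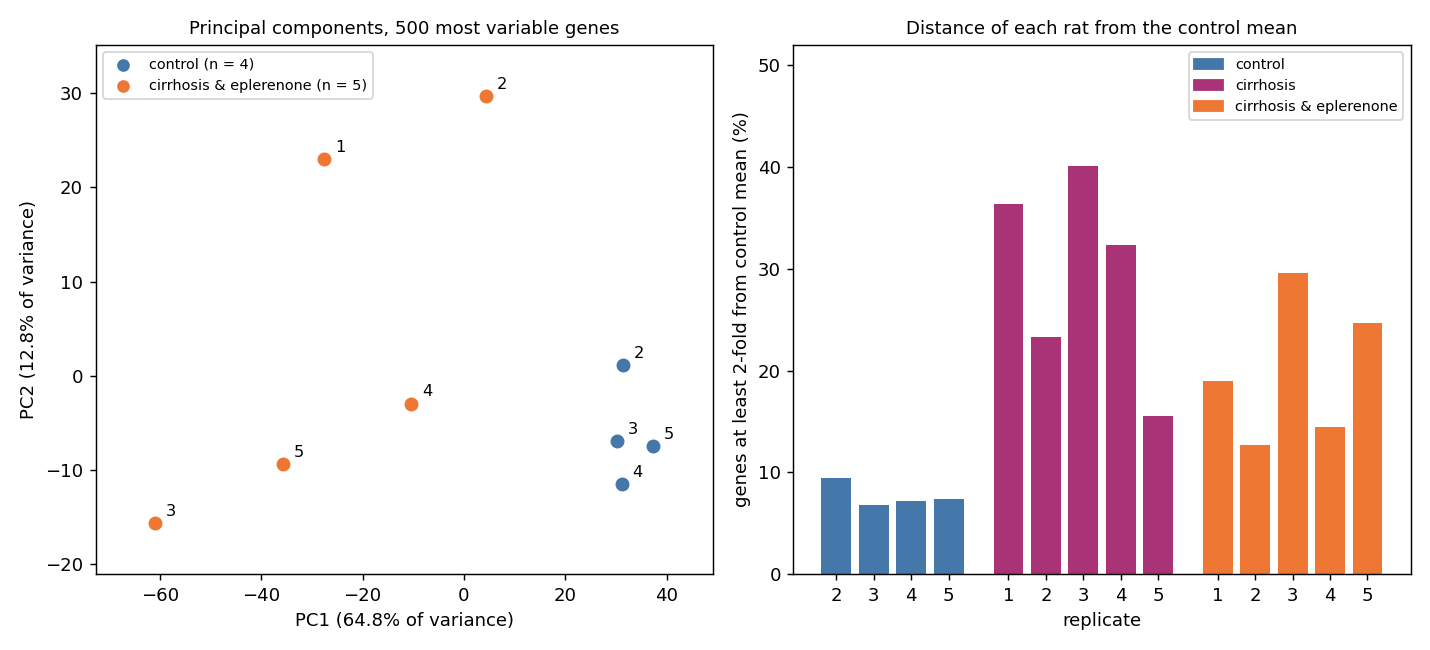
Left, first and second principal components of the 4 control and 5 cirrhosis & eplerenone livers over the 500 most variable genes, with each point numbered by replicate. Right, percent of the 14417 tested genes at least 2-fold from the control mean in each liver of the 3 groups; treated replicates 2 and 4 lie at 12.7% and 14.5%, treated replicate 3 at 29.6%.

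The number of DEGs depended on single livers. It was 220 without control replicate 5, 310 without control replicate 3, 414 and 415 without control replicates 4 and 2, 377 without treated replicate 3, 502 without treated replicate 5 and 1273 without treated replicate 2. With only the 2 treated rats of label number 15 (replicates 1 and 2) it was 97, and with only the 3 of label number 20 it was 1225. None of the 750 genes changed direction in any of these fits. Called genes given below with their level in every rat kept their call in all 14 fits that left out 1 liver, unless the text gives the livers without which it was lost. Called genes given by a log2FC alone with no such statement (apart from LOC100125368, which kept its call), and Clec4f, Vsig4, Cd14, Actb and Actg1, were named after their values were seen, and whether these calls held without each liver is not listed.

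Collagens of fibrils and of basement membranes were among the higher genes. Of 20 collagen genes tested, 8 were higher and 0 lower, a share called of 40% beside 5.2% over all genes. The list median log2FC was 1.10, against 0.01 for all genes. Col1a1, which encodes the main chain of the scar's type I collagen, had 2.83, 6.13, 6.90 and 4.26 FPM in controls and 35.5, 24.0, 66.5, 32.8 and 44.3 FPM in treated rats. The lowest treated liver lay above the highest control (log2FC 3.01, SE 0.51, edgeR FDR 0.00537). Between cirrhosis and control the log2FC of Col1a1 was 3.36. Col5a3, a chain of type V collagen that regulates fibril width, had 0.543, 0.289, 0.427 and 0.636 FPM in controls and 1.43, 1.25, 7.89, 2.09 and 2.68 FPM in treated rats (log2FC 2.69, SE 0.55, edgeR FDR 0.0125). Treated replicate 3 stood well above the other treated livers for this gene, and the groups did not overlap. The remaining called members were Col3a1 (log2FC 1.22), the partner of type I collagen in fibrils, the basement membrane chains Col4a1 (1.45), Col4a2 (1.18) and Col4a5 (1.30), and Col8a2 (2.26) and Col16a1 (2.08). Col8a2 was no longer called without any 1 of the 4 controls or of treated replicates 1, 3 and 5, with log2FC of 1.95 to 2.64. The mean log2 difference of the 20 collagens from the control mean was 1.24, 0.96, 1.47, 0.96 and 0.76 in the 5 treated rats and -0.24, 0.14, 0.20 and -0.11 in the controls. It was above every control in each treated rat, replicate 2 included. Between 4 and 11 collagens were called when 1 liver was left out, with 4 without control replicate 2, 3 or 5.

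Enzymes that modify and crosslink collagen were mixed. Of 17 tested, 4 were higher and 1 lower, a share called of 29.4% beside 5.2% over all genes. Plod2, the lysyl hydroxylase that prepares the telopeptide crosslinks of scar collagen, had 1.27, 1.62, 0.549 and 0.572 FPM in controls and 10.7, 5.26, 18.5, 5.14 and 3.77 FPM in treated rats. The groups did not overlap (log2FC 3.10, SE 0.52, edgeR FDR 0.00531). Loxl1, a lysyl oxidase needed for elastin fibers, had 2.47, 2.26, 2.50 and 0.763 FPM against 9.05, 6.13, 26.026, 7.73 and 16.0 FPM (log2FC 2.70, SE 0.56, edgeR FDR 0.0136), and lost its call without control replicate 5, where its FDR was 0.0545. Lox, the founding lysyl oxidase, had 0.241, 1.33, 0.488 and 0.572 FPM in controls and 2.66, 0.939, 8.74, 4.12 and 6.39 FPM in treated rats, with replicate 2 inside the control range (log2FC 2.78, SE 0.66, edgeR FDR 0.0235). Its call was lost without control replicates 2, 4 or 5 or treated replicate 3, where the log2FC stayed between 2.41 and 3.38. Adamts2, the protease that trims the amino end of procollagen, was also higher (log2FC 1.65). Bmp1, which trims the other end, was the 1 lower member (log2FC -0.52). Serpinh1, the collagen chaperone HSP47, had 53.3, 63.7, 29.0 and 43.7 FPM in controls and 57.1, 33.7, 70.6, 29.0 and 35.3 FPM in treated rats, fully overlapping ranges (log2FC -0.07, 95% interval -0.76 to 0.62, edgeR FDR 0.937). Calls in this list fell to 1 without control replicate 5.

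Among matrix glycoproteins and proteoglycans, 14 of 33 were higher and 0 lower, a share called of 42.4% beside 5.2% over all genes. The list median log2FC was 1.07. Mgp, matrix Gla protein, which binds calcium and stands outside that list, had 7.30, 16.5, 12.0 and 7.95 FPM in controls and 160.2, 44.6, 250.1, 77.3 and 152 FPM in treated rats. Its lowest treated liver, replicate 2, lay well above the highest control (log2FC 3.64, SE 0.57, edgeR FDR 0.00388). Fbln1, which binds fibronectin and elastic fibers, had 0.663, 1.39, 0.488 and 0.445 FPM against 6.13, 2.44, 13.3, 5.36 and 6.34 FPM (log2FC 3.16, SE 0.57, edgeR FDR 0.00781). Ltbp2, which belongs to the latent TGF-beta binding proteins, had 0.724, 1.16, 1.28 and 0.827 FPM against 7.72, 5.95, 7.93, 7.62 and 7.54 FPM (log2FC 2.87, SE 0.53, edgeR FDR 0.00819). The 5 treated livers lay close together for Ltbp2, with replicate 2 lowest, and far above the controls. Ccn2, connective tissue growth factor, had 4.58, 6.88, 4.58 and 4.32 FPM in controls and 27.5, 8.64, 179, 39.2 and 22.5 FPM in treated rats, replicate 3 far above the rest (log2FC 3.44, SE 0.92, edgeR FDR 0.0418). Its call was lost without each control, cirrhosis replicate 1, or treated replicate 1 or 3, with log2FC of 2.27 to 3.72. Dcn, the collagen-binding proteoglycan decorin, was higher (log2FC 1.64, SE 0.40, edgeR FDR 0.0274) and lost its call without control replicate 4 or 5 or treated replicate 3, with log2FC of 1.31 to 1.85. Other higher members included the elastic fiber genes Eln (1.51) and Fbn1 (1.32), the basement membrane genes Lama5 (2.30), Lamb1 (1.61) and Nid1 (1.22), and the small proteoglycans Aspn (2.09), Ogn (1.74) and Bgn (0.95). Fn1, fibronectin, which hepatocytes also secrete into plasma, had 1118, 1410, 1482 and 1718 FPM in controls and 1324, 1216, 1107, 1257 and 1037 FPM in treated rats and was not called (log2FC -0.27, 95% interval -0.70 to 0.16, edgeR FDR 0.51). Calls in this list fell to 3 without control replicate 5 and to 6 without control replicate 3 or treated replicate 3.

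Matrix proteases and inhibitors gave 4 higher and 0 lower genes of 20 tested, a share called of 20% beside 5.2% over all genes. Mmp2, the gelatinase made by activated stellate cells, had 7.06, 9.02, 7.57 and 7.38 FPM in controls and 31.0, 27.3, 45.9, 30.2 and 32.7 FPM in treated rats. The groups lay far apart, with treated replicate 3 above the other treated livers (log2FC 2.11, SE 0.26, edgeR FDR 0.00127), and this call held in all 25 alternative settings. Mmp12, the macrophage metalloelastase, had 0.362, 1.04, 0.0610 and 0.127 FPM against 10.988, 13.2, 17.3, 5.02 and 6.39 FPM (log2FC 4.69, SE 0.80, edgeR FDR 0.00556). Timp4, a metalloproteinase inhibitor, was also higher but near the limit of detection, with 1 read in all controls and 59 in treated rats, a ratio of 40.4 (95% counting interval 6.98 to 1620), and its call was lost without each control or treated replicate 1, 3 or 5 (highest edgeR FDR 0.111). Timp1, the inhibitor used as a serum marker of fibrosis, had 1.81, 1.91, 4.33 and 0.954 FPM in controls and 8.18, 2.69, 20.2, 5.70 and 11.3 FPM in treated rats and missed the threshold (log2FC 2.10, 95% interval 0.81 to 3.38, edgeR FDR 0.0572). Calls fell to 2 without control replicate 4 or 5.

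The stellate cell and myofibroblast list gave 2 higher genes of 21, Pdgfra and Thy1, and 0 lower, with a median log2FC of 0.73. That is 9.52% called, beside 5.2% over all genes. Acta2, the smooth muscle actin that defines myofibroblasts, had 2.53, 2.89, 3.66 and 1.46 FPM in controls and 4.96, 1.31, 30.2, 6.66 and 10.9 FPM in treated rats. Replicate 2 lay below every control and replicate 3 far above, and Acta2 was not called (log2FC 2.04, 95% interval 0.42 to 3.65, edgeR FDR 0.137). Des, the stellate cell filament desmin, had 2.65, 3.12, 3.24 and 1.91 FPM against 7.31, 5.57, 13.3, 3.33 and 8.85 FPM, ranges that did not overlap, yet was not called (log2FC 1.49, edgeR FDR 0.0815). Non-overlap alone was met by 10.9% of all tested genes. Pdgfra, the platelet-derived growth factor receptor of portal fibroblasts, had 6.88, 7.63, 11.5 and 11.1 FPM against 22.4, 22.5, 21.6, 16.198 and 13.9 FPM (log2FC 1.06, SE 0.26, edgeR FDR 0.0263). Thy1, a surface marker of portal fibroblasts and T cells, was higher mainly in treated replicates 3 and 5, at 4.82 and 4.48 FPM (log2FC 4.25, SE 1.15, edgeR FDR 0.0436). Pdgfra lost its call without control replicates 2, 3 or 5 or treated replicates 1 or 3, and Thy1 without each control, cirrhosis replicates 1, 2 or 4 or treated replicates 3 or 5, with log2FC of 0.94 to 1.18 for Pdgfra and 3.70 to 4.59 for Thy1 over the 14 fits that left out 1 liver.

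**Figure D2:**
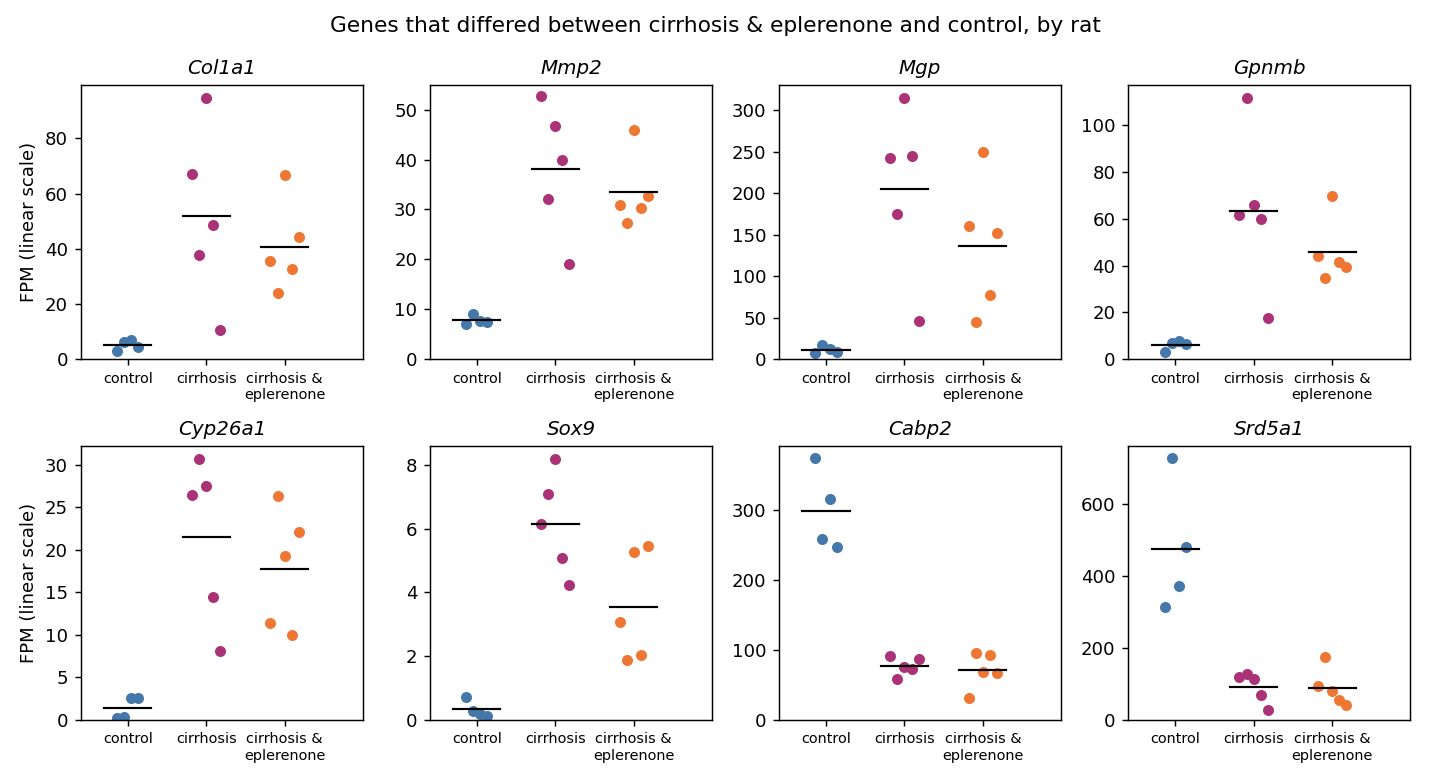
FPM of 8 genes in each liver on linear axes, with a bar at the group mean, for control (n = 4), cirrhosis (n = 5) and cirrhosis & eplerenone (n = 5). In all 8 genes the treated livers do not overlap the controls, for example 27.3 to 45.9 FPM against 7.06 to 9.02 FPM for Mmp2.

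Of 23 genes of the TGF-beta pathway, the main profibrotic signal, 6 were higher and 0 lower (26.1% called, beside 5.2% over all genes). Called members included storage proteins, an activating integrin and a target: Ltbp1 (log2FC 1.88), Ltbp2 and Ltbp3 (1.58), Itgb6 and Ccn2. Itgb6, a subunit of the epithelial integrin that releases latent TGF-beta, had 0.784, 0.0578, 0.366 and 0.509 FPM in controls and 3.99, 1.06, 6.27, 1.58 and 4.10 FPM in treated rats, without overlap (log2FC 2.98, SE 0.59, edgeR FDR 0.0106). The ligand Tgfb1 itself had 10.5, 5.78, 9.46 and 6.55 FPM against 12.5, 9.14, 26.8, 12.1 and 24.2 FPM and was not called (log2FC 1.07, edgeR FDR 0.139). The receptor Tgfbr2 had overlapping ranges and a log2FC of -0.06 (95% interval -0.93 to 0.81). Calls in this list fell to 3 without control replicate 5.

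The ductular and progenitor list, genes of bile duct-like cells, had the highest median of the lists, 2.06, with 8 of 20 genes higher and 0 lower. That is 40% called, beside 5.2% over all genes. Sox9, the transcription factor of biliary and progenitor cells, had 0.724, 0.289, 0.183 and 0.127 FPM in controls and 3.07, 1.88, 5.26, 2.03 and 5.46 FPM in treated rats. All treated livers were above all controls (log2FC 3.39, SE 0.51, edgeR FDR 0.00327). Cldn7, an epithelial tight junction protein, had 0.965, 0.578, 0.488 and 0.254 FPM against 6.24, 1.63, 10.9, 7.11 and 16.6 FPM (log2FC 3.88, SE 0.63, edgeR FDR 0.00426). Prom1, the progenitor surface protein CD133, had 1.39, 0.289, 0.549 and 0.191 FPM against 7.87, 1.94, 9.11, 1.92 and 4.26 FPM (log2FC 3.04, SE 0.64, edgeR FDR 0.0141), and lost its call without control replicate 3 or 5, at an FDR of up to 0.0572. Also called were Cftr (2.79), the biliary chloride channel, Epcam (1.64), Cd24 (2.73), Cldn4 (2.79) and Muc1 (2.15). Krt7, another duct keratin, had a log2FC of 2.34 (95% interval 0.69 to 3.99, edgeR FDR 0.0937) and was not called. Krt19, the duct keratin, had 2.05, 1.04, 2.99 and 0.954 FPM in controls and 9.40, 3.57, 14.4, 2.60 and 4.32 FPM in treated rats, overlapping only at replicate 4, and missed the threshold (log2FC 1.96, 95% interval 0.67 to 3.26, edgeR FDR 0.0753). Kif12, a kinesin of epithelial cells, had 3.32, 3.01, 2.14 and 1.78 FPM against 26.014, 10.4, 47.9, 12.3 and 29.5 FPM (log2FC 3.30, SE 0.48, edgeR FDR 0.00313). In list means, replicates 2 and 4 stood at 1.07 and 0.94 and replicate 3 at 2.39, against -0.36 to 0.31 in controls. Calls fell to 3 without control replicate 5.

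Of 23 macrophage genes tested, 6 were higher and 0 lower, a share called of 26.1% beside 5.2% over all genes. Those 6 were Trem2, Gpnmb, Cd9, Lgals3, Itgax and Lyz2, of which Trem2, Gpnmb and Cd9 are known marks of the macrophages that gather in scars. Gpnmb, a lysosomal glycoprotein, had 3.02, 6.94, 7.51 and 6.55 FPM in controls and 44.0, 34.8, 69.7, 41.7 and 39.6 FPM in treated rats (log2FC 2.93, SE 0.43, edgeR FDR 0.00313). Treated replicate 3 was highest, and the lowest treated liver had several times the highest control. Trem2, a lipid-sensing receptor, had 1 read in all 4 controls and 355 in the 5 treated livers, a ratio of 243 (95% counting interval 43.4 to 9640), with 2.76, 1.88, 6.76, 1.98 and 3.77 FPM in treated rats. Lyz2, lysozyme, had 18.6, 12.5, 18.5 and 10.4 FPM against 61.6, 30.4, 249, 59.7 and 119 FPM (log2FC 2.79, SE 0.54, edgeR FDR 0.0103). Cd9 (2.64), Lgals3 (1.53) and Itgax (2.50) were higher as well. The Kupffer cell genes Clec4f and Vsig4 had log2FC of -0.46 and -0.31 and were not called. The lowest log2FC of the list was that of Cd14, the co-receptor for bacterial lipopolysaccharide, at -1.34, lower without overlap but not called (edgeR FDR 0.0655). Cd163, a scavenger receptor of resident macrophages, had 22.8, 18.1, 29.2 and 23.5 FPM against 28.7, 15.3, 14.3, 23.1 and 23.9 FPM, a log2FC of -0.15 (95% interval -0.82 to 0.51); between cirrhosis and control, which shares the control samples, it was -1.22. Cd68, a general macrophage marker, had a log2FC of 0.68 (95% interval 0.12 to 1.23). Lilrb4, an inhibitory receptor of myeloid cells, was among the 10 largest rises of called coding genes that did not overlap and reached 1 FPM in both groups, with 1.33, 1.27, 1.77 and 0.254 FPM against 12.2, 8.26, 32.7, 6.10 and 9.12 FPM (log2FC 3.56, SE 0.60, edgeR FDR 0.00522). Calls in the macrophage list fell to 3 without control replicate 5.

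Promoters of Trem2 and Gpnmb are shown because both genes rose and both hold the letters TGANTCA, a loosened form of the AP-1 site of Fos and Jun dimers, chosen after the sequences were seen. The stretch in Trem2 is TGAATCA, which the stricter AP-1 site (TGACTCA or TGAGTCA) does not include. The RefSeq sequences cover 250 bases before to 50 after the annotated start in build GRCr8, which is not the build of the counts, at chr9:20151730-20152029 (- strand) and chr4:79340878-79341177 (+ strand), with the motif in capitals. Promoters were matched by symbol for 419 of the 624 higher and 82 of the 126 lower DEGs. The motif, on either strand, was in 7.33% of all 33469 promoters of this length, in 5.04% of the 10064 of tested genes, in 7.64% of those of higher DEGs and in 6.10% of those of lower DEGs. A match in these letters is a description and not a shown binding site.
Trem2: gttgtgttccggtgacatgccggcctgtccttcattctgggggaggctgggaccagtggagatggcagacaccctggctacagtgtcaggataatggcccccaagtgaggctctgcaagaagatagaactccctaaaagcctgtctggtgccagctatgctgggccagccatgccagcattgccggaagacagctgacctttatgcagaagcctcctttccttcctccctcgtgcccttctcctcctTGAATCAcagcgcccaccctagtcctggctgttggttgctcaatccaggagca
Gpnmb: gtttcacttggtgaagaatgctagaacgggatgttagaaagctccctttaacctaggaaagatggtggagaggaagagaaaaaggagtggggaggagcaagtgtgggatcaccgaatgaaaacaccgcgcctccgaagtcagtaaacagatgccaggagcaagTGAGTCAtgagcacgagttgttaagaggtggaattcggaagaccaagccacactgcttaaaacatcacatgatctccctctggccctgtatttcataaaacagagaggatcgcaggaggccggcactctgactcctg

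Of 20 lymphocyte genes, 18 had a positive log2FC (median 0.66) and 1 was called, a share of 5% beside 5.2% over all genes. That gene was Cd2, an adhesion receptor of T cells, at 0.241, 0.116, 0.305 and 0.318 FPM in controls and 0.971, 0.563, 1.42, 0.677 and 1.42 FPM in treated rats (log2FC 2.03, SE 0.53, edgeR FDR 0.038). It was lost without any 1 of 8 livers, each control among them, cirrhosis replicate 2 and treated replicates 1, 3 and 5, with log2FC of 1.79 to 2.17. Cd3e, the T cell receptor subunit, had a log2FC of 1.97 (edgeR FDR 0.129), and Cd79a, a B cell receptor subunit, of 0.13 (95% interval -0.82 to 1.08). Antigen presentation by MHC class II was clearer. Of 27 genes in the interferon and antigen presentation list, 6 were higher and 0 lower (22.2% called, beside 5.2% over all genes). All 6 were in the class II pathway: Cd74, the 4 chains RT1-Ba, RT1-Bb, RT1-Da and RT1-Db1, and their activator Ciita. Cd74, the invariant chain, had 97.9, 70.2, 131 and 64.7 FPM in controls and 314, 160.5, 616, 343 and 475 FPM in treated rats (log2FC 2.07, SE 0.42, edgeR FDR 0.0125). RT1-Da, a class II alpha chain, had 29.1, 19.8, 40.5 and 21.9 FPM against 113, 56.3, 251, 106 and 114 FPM (log2FC 2.20, SE 0.39, edgeR FDR 0.00651). Replicate 2 was the lowest treated liver for both genes and still above all controls. RT1-Db1, its beta chain partner, differed likewise (log2FC 2.10, SE 0.46, edgeR FDR 0.016). The call of Cd74 was lost without control replicate 5 (edgeR FDR 0.0562) and that of RT1-Db1 without control replicate 3 or 5 (highest edgeR FDR 0.0682). RT1 genes are similar to each other and reads mapping to several places were counted at each, so the split among them is uncertain. Isg15, a type I interferon target, had a log2FC of 0.46 (95% interval -0.56 to 1.49). Calls fell to 2 without control replicate 5.

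Among 30 chemokines and receptors, 5 were higher and 0 lower, a share called of 16.7% beside 5.2% over all genes. Ccl21, the lymphatic chemokine that draws T cells and dendritic cells, had 10.4, 3.87, 9.34 and 4.07 FPM in controls and 83.3, 14.6, 378, 31.5 and 213 FPM in treated rats. Replicate 3 reached the highest level and replicate 2 lay just above the highest control (log2FC 4.38, SE 0.95, edgeR FDR 0.016), and the call was lost without control replicate 3 or 5, at an FDR of up to 0.0675. Cx3cl1, fractalkine, which binds monocytes, had 0.965, 0.520, 0.916 and 0.445 FPM against 5.06, 2.38, 9.43, 3.67 and 5.57 FPM (log2FC 2.87, SE 0.46, edgeR FDR 0.0041). Ccl19 (2.56), which shares the receptor of Ccl21, Cxcl16 (2.25) and Cxcr4 (2.02) completed the list, and the call of Ccl19 was lost without any control or treated replicate 3 or 5 (highest edgeR FDR 0.0964). Ccl2, the monocyte chemokine MCP-1, was low in all livers, at 0, 0.231, 0.183 and 0.382 FPM in controls and 0.664, 0.125, 4.05, 0.903 and 1.58 FPM in treated rats, and was not called (log2FC 2.86, edgeR FDR 0.0641). Cxcl12, a chemokine of resident liver cells, had 181, 201, 226 and 172 FPM against 55.7, 161, 53.9, 167 and 72.2 FPM, lower in every treated liver, and was not called (log2FC -0.94, edgeR FDR 0.198). Calls fell to 1 without control replicate 3 or 5 and to 2 without treated replicate 3.

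Endothelial genes gave 2 calls of 26, both higher, with a list median of 0.08. That is a share of 7.69%, beside 5.2% over all genes. Mmrn1, a lymphatic and platelet multimerin, had 0.302, 0.0578, 0.305 and 0.191 FPM in controls and 4.80, 0.501, 25.5, 3.16 and 6.12 FPM in treated rats (log2FC 5.20, SE 1.07, edgeR FDR 0.0135), and lost its call without control replicate 3 or 5, at an FDR of up to 0.0549. Icam1, the leukocyte adhesion molecule, had 21.9, 29.1, 37.7 and 30.6 FPM against 57.8, 43.9, 55.3, 45.4 and 42.1 FPM (log2FC 0.71, SE 0.17, edgeR FDR 0.0262), and lost its call without control replicate 2, 3 or 5 or treated replicate 1 or 3 (log2FC of 0.59 to 0.84). Stab2, the scavenger receptor of sinusoidal endothelium, had 28.2, 25.6, 29.4 and 29.4 FPM against 29.5, 27.5, 11.5, 30.1 and 24.5 FPM, with replicate 3 far below and replicate 5 just below the controls (log2FC -0.19, 95% interval -1.25 to 0.87, edgeR FDR 0.883). Without control replicate 5 the list had 0 calls.

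Annexins, S100 proteins and cytoskeletal genes, typical of proliferating ducts, myofibroblasts and leukocytes, gave 11 higher and 0 lower genes of 30. That is 36.7% called, beside 5.2% over all genes. S100a6, a calcium-binding protein of ducts, had 2.83, 2.26, 3.30 and 1.08 FPM in controls and 8.02, 3.57, 33.6, 8.69 and 14.043 FPM in treated rats (log2FC 2.52, SE 0.61, edgeR FDR 0.0254). S100a8, a subunit of the neutrophil protein calprotectin, had 0.121, 0.231, 0.183 and 0.254 FPM against 2.66, 0.188, 2.51, 3.73 and 9.23 FPM, replicate 2 within the controls and replicate 5 highest (log2FC 4.17, SE 0.98, edgeR FDR 0.0235). Anxa2, which binds membranes and plasminogen, had 11.4, 9.60, 9.65 and 7.44 FPM against 29.8, 12.1, 79.5, 23.5 and 54.6 FPM (log2FC 2.07, SE 0.55, edgeR FDR 0.0418). None of the 11 remained without control replicate 3 or 5, and 3 remained called without treated replicate 3. S100a6 lost its call without each control or treated replicate 3, S100a8 without each control or treated replicate 5, and Anxa2 without each control, cirrhosis replicate 1 or treated replicates 1, 3 or 5. Over the fits leaving out 1 liver, log2FC ran from 1.86 to 2.76 for S100a6, 3.49 to 4.47 for S100a8 and 1.66 to 2.30 for Anxa2, so the direction did not turn. S100a9, the partner of S100a8, was higher (log2FC 3.35, edgeR FDR 0.043) and lost its call in 9 of the 14 fits, without each control, cirrhosis replicates 1 or 3 or treated replicates 3, 4 or 5. S100a4, a marker of fibroblasts and leukocytes, had a log2FC of 2.22 and was not called (edgeR FDR 0.129). Actb and Actg1, the common actins, had log2FC of 0.31 and 0.29 and were not called.

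Cell cycle genes had a median log2FC of 1.49, and 3 of 29 were called, all higher, a share of 10.3% beside 5.2% over all genes. Ccnd1, the cyclin that starts the cycle, had 26.2, 33.4, 55.4 and 52.7 FPM in controls and 119, 71.7, 134, 81.5 and 162 FPM in treated rats (log2FC 1.44, SE 0.30, edgeR FDR 0.014); without control replicate 3 its FDR was 0.0556. The other called members, Cdkn2c and Cdkn2b, encode inhibitors of the kinases that Ccnd1 activates. Cdkn2c had 0.965, 2.02, 3.24 and 2.35 FPM against 9.30, 11.9, 9.31, 8.13 and 7.76 FPM, an even rise in all 5 rats (log2FC 2.11, SE 0.30, edgeR FDR 0.00289). Cdkn2b had 0.603, 0.752, 0.977 and 0.572 FPM against 2.45, 1.56, 4.82, 4.52 and 2.57 FPM (log2FC 2.13, SE 0.45, edgeR FDR 0.0147) and lost its call without control replicate 5, at an FDR of 0.0609. Mki67, the usual mark of dividing cells, had 2.71, 2.08, 5.01 and 1.21 FPM against 4.29, 2.75, 24.2, 3.44 and 12.7 FPM. It was high in replicates 3 and 5 and within the control range in the other 3 treated rats (log2FC 1.79, 95% interval 0.51 to 3.07, edgeR FDR 0.0978). Calls in this list rose to 13 without treated replicate 2.

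**Figure D3:**
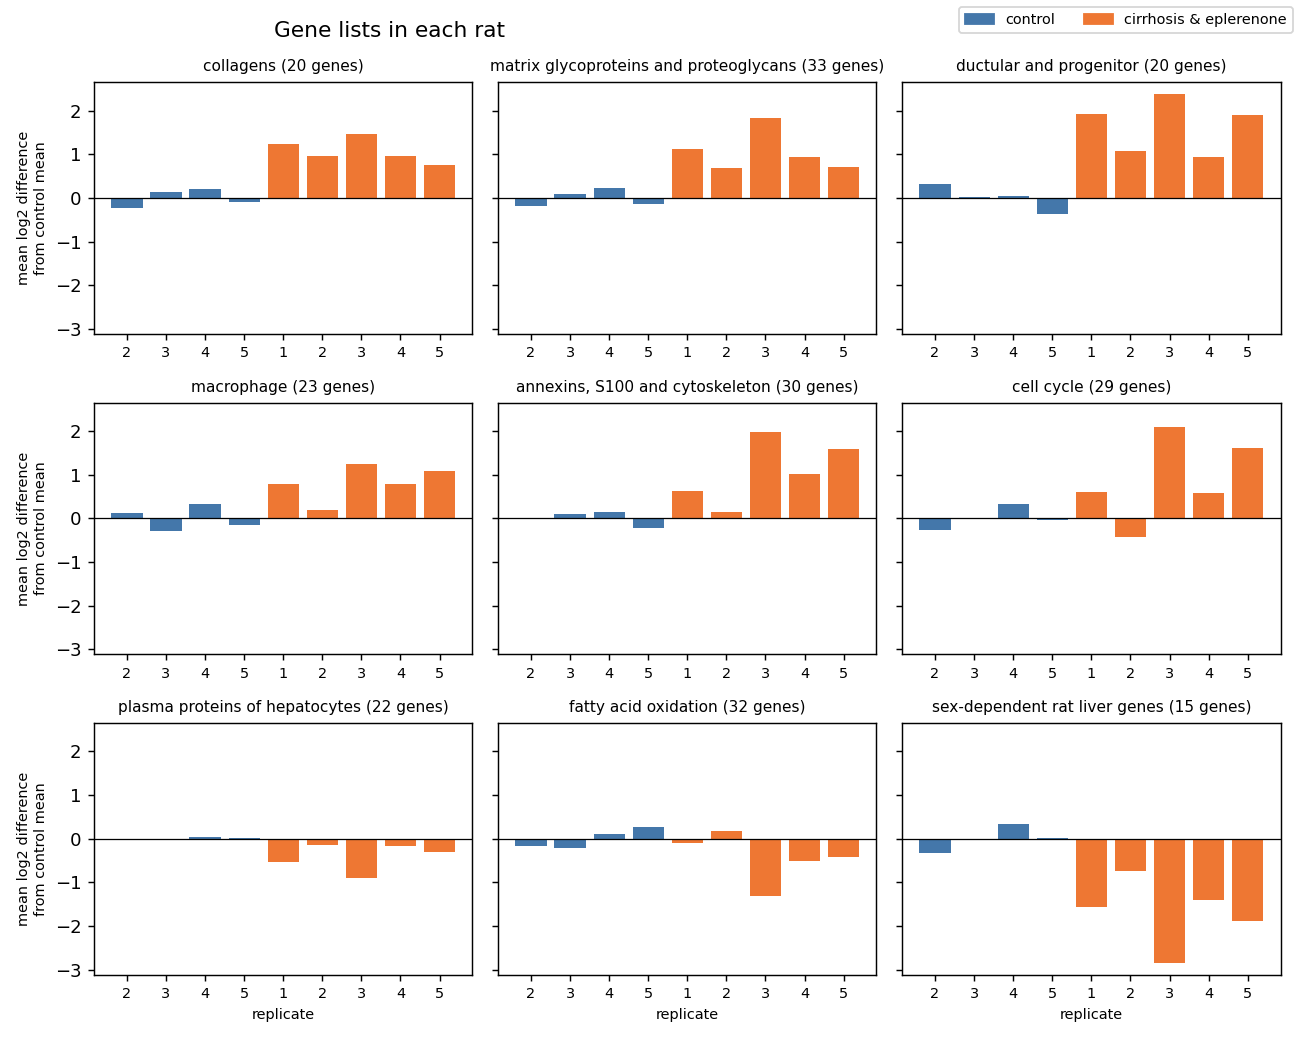
Mean log2 difference of the tested genes of 9 lists from the control mean, in each of 4 control (blue) and 5 cirrhosis & eplerenone (orange) livers. Collagens and ductular genes are above every control in each treated rat, cell cycle genes are at 2.09 and 1.61 in replicates 3 and 5 and at -0.44 in replicate 2, and sex-dependent genes are below every control in each treated rat.

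Of 22 plasma proteins of hepatocytes, 20 had a negative log2FC, with a median of -0.42. None passed edgeR and DESeq2 together, and 3 passed DESeq2 alone. In this list 7 were lower without overlap, as were 4.46% of all tested genes. Alb had a log2FC of -0.42 (95% interval -1.06 to 0.23, edgeR FDR 0.495). F9, clotting factor IX, had 665, 749, 692 and 788 FPM in controls and 514, 778, 242, 534 and 321 FPM in treated rats (log2FC -0.60, edgeR FDR 0.333). Replicate 2 was within the controls for F9 and replicate 3 was lowest. Hepatocyte transcription factors had 0 calls of 15 (1 by DESeq2 alone): Hnf4a had a log2FC of -0.54 (95% interval -1.04 to -0.03, edgeR FDR 0.214), and Cebpa of 0.34 (95% interval -0.40 to 1.07). The growth hormone axis had 0 of 12 (2 by DESeq2 alone), with Ghr, the growth hormone receptor, at 437, 366, 392 and 406 FPM against 238, 357, 126, 286 and 158 FPM, lower in each treated liver but not called (log2FC -0.78, edgeR FDR 0.194). Igf1 had a log2FC of -0.73 (edgeR FDR 0.187).

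The sex-dependent rat liver genes, which the pulse pattern of growth hormone sets in males and females, had the lowest median, -0.83. There was 1 call of 15, a share of 6.67% beside 5.2% over all genes. Srd5a1, steroid 5-alpha-reductase, which reduces testosterone and corticosteroids, had 314, 726, 373 and 480.3 FPM in controls and 92.6, 175, 79.1, 54.7 and 39.8 FPM in treated rats. Every treated liver was below every control (log2FC -2.42, SE 0.46, edgeR FDR 0.00874), and between cirrhosis and control the log2FC was -2.37. Cyp2c11, the main male-specific P450, had 2198, 1942, 1596 and 1512 FPM in controls and 148, 1616, 4.61, 1967 and 579 FPM in treated rats. Replicates 2 and 4 were at control level, while replicate 3 had lost nearly all of it and replicate 1 most (log2FC -1.07, 95% interval -4.28 to 2.14, edgeR FDR 0.768). The list mean lay below every control in all 5 treated rats, at -1.57, -0.74, -2.85, -1.40 and -1.89, against -0.33, -0.03, 0.34 and 0.02 in controls. Genes were listed without regard to which sex has more of them. The mean and median therefore do not show a shift between the male and the female pattern.

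The Srd5a1 promoter is shown as that of a gene that fell. It spans chr1:35514664-35514963 (+ strand) in GRCr8 (RefSeq), and capitals mark its 7 copies of the GC box GGGCGG on either strand, the sequence that Sp1 binds. The GC box was in 33.1% of all promoters, in 61.3% of those of tested genes that matched, in 59.9% of those of higher DEGs and in 59.8% of those of lower DEGs.
Srd5a1: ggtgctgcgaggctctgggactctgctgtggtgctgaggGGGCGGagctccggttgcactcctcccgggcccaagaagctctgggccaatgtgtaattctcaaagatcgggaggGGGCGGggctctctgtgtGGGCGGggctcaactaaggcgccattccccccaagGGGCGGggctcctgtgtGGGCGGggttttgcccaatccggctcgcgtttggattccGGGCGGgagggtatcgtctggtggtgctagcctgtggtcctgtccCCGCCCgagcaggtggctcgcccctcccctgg

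Cytochromes P450 of families 1 to 3, which handle drugs and steroids, gave 1 call of 28, with a median log2FC of -0.31. The share called was 3.57%, beside 5.2% over all genes. Cyp3a62 was higher, at 5.43, 7.98, 6.65 and 11.1 FPM in controls and 17.1, 11.8, 13.6, 14.6 and 27.0 FPM in treated rats (log2FC 1.11, SE 0.28, edgeR FDR 0.0325), and lost its call without control replicates 2, 3 or 4 or treated replicates 1, 3 or 5 (log2FC of 0.87 to 1.33). Cyp2b1, which phenobarbital induces, had 5.07, 4.45, 1.40 and 3.24 FPM against 737, 33.7, 53.7, 22.6 and 19.2 FPM. Replicate 1 exceeded the other treated livers many times over, all 5 were above the controls, and the gene was not called (log2FC 5.61, edgeR FDR 0.0605). DESeq2 gave no FDR for Cyp2b1, so the rule that needs both tools could not call it. Cyp2e1, which activates CCl4, had 2149, 2255, 1456 and 1792 FPM against 3538, 4177, 797, 2063 and 1618 FPM (log2FC 0.35, 95% interval -0.51 to 1.22). It was lowest in replicate 3 and highest in replicates 1 and 2. P450 genes resemble each other, and the counting of multiply mapped reads at each place makes their separate values uncertain.

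Of 28 conjugation genes and targets of the stress regulator NRF2, 1 was higher, a share of 3.57% beside 5.2% over all genes. Gsta3, a glutathione transferase, had 7.06, 10.5, 2.08 and 1.34 FPM in controls and 17.4, 12.0, 125, 32.2 and 39.6 FPM in treated rats (log2FC 3.11, SE 0.74, edgeR FDR 0.0242), and lost its call without control replicates 2, 4 or 5 or treated replicate 3 (log2FC of 2.27 to 3.69). Nqo1, a classical NRF2 target, had 17.9, 26.7, 26.9 and 19.4 FPM against 38.8, 5.19, 13.4, 8.01 and 7.38 FPM. Replicate 1 was above the controls and the other 4 treated rats below them (log2FC -0.64, 95% interval -1.93 to 0.65). In bile acid synthesis and transport, 1 of 28 genes was called, again 3.57%. Abcc3, the basolateral export pump that rises when bile flow is impaired, had 2.53, 2.83, 3.36 and 1.78 FPM against 20.8, 4.51, 36.5, 6.89 and 9.45 FPM (log2FC 2.57, SE 0.68, edgeR FDR 0.0399). Its call was lost without each control, cirrhosis replicate 2, or treated replicates 1, 3 or 5 (log2FC of 1.99 to 2.81). Cyp7a1, the rate-limiting enzyme of bile acid synthesis, had a log2FC of 0.87 (95% interval 0.09 to 1.66, edgeR FDR 0.19), and Slc10a1, the bile acid uptake carrier, of -0.71 (edgeR FDR 0.334).

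Fatty acid oxidation had 0 calls of 32 by both tools and 0 by DESeq2 alone, with a median log2FC of -0.29. Between cirrhosis and control, which shares the control samples, the median was -0.88. List means were -0.10, 0.17, -1.31, -0.51 and -0.43 in treated rats and -0.16, -0.22, 0.11 and 0.28 in controls. Replicates 3, 4 and 5 lay within the range of cirrhotic rats without eplerenone, -1.34 to -0.37, and replicates 1 and 2 above it. With only the treated rats of label number 20, 5 genes were called, and 1 without treated replicate 2. Ppara, the nuclear receptor that drives the pathway, had 10.7, 7.57, 8.73 and 8.71 FPM in controls and 9.66, 15.3, 6.60, 7.39 and 2.19 FPM in treated rats (log2FC -0.12, 95% interval -1.05 to 0.81). Replicate 5 was low and replicate 2 high. The log2FC of Ppara was -2.03 between cirrhosis and control and 1.91 between cirrhosis & eplerenone and cirrhosis. The latter passed DESeq2 alone (FDR 0.0101) but not edgeR (FDR 0.312), so it was not called. Cpt1a, which admits fatty acids to mitochondria, had a log2FC of 0.34 (95% interval -0.81 to 1.48). Among 19 genes of lipogenesis and lipid storage 2 were higher, Lpl and Fabp4, which adipocytes and macrophages express. That is 10.5% called, beside 5.2% over all genes. Lpl, lipoprotein lipase, had 4.16, 6.59, 12.7 and 6.55 FPM against 29.4, 15.4, 119.6, 24.1 and 31.8 FPM (log2FC 2.56, SE 0.57, edgeR FDR 0.0188) and lost its call without control replicates 2, 3 or 5 (highest edgeR FDR 0.0732). Fabp4 had 1.45, 2.26, 3.91 and 0.890 FPM against 14.975, 4.88, 28.3, 5.14 and 26.7 FPM (log2FC 2.91, SE 0.78, edgeR FDR 0.0424) and lost its call in 9 of the 14 fits that left out 1 liver, those without any control, cirrhosis replicate 1 or 4 or treated replicate 1, 3 or 5 (log2FC of 2.61 to 3.37). Srebf1, the regulator of lipogenesis, was lower but not called (log2FC -0.85, 95% interval -1.40 to -0.30, edgeR FDR 0.0694). Fasn, fatty acid synthase, had a log2FC of 0.30 (95% interval -0.49 to 1.09). Cholesterol synthesis and uptake had 0 calls of 19 (3 by DESeq2 alone), and without control replicate 3 it had 3.

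In nitrogen metabolism, 1 of 14 genes of the urea cycle and glutamine and 1 of 27 of amino acid catabolism and the methionine cycle were called. These shares were 7.14% and 3.7%, beside 5.2% over all genes. Rhbg, an ammonium transporter of hepatocytes around the central vein, was higher, at 4.70, 5.44, 3.17 and 3.50 FPM in controls and 21.1, 38.0, 11.5, 14.7 and 8.31 FPM in treated rats (log2FC 2.15, SE 0.44, edgeR FDR 0.0135). Replicate 2, the liver nearest to control on most other measures, had the highest level of Rhbg, and the call was lost without control replicate 5 (edgeR FDR 0.0562). Kmo, kynurenine monooxygenase of tryptophan breakdown, was lower, at 158, 163, 121 and 164 FPM against 55.3, 118, 50.8, 79.7 and 49.7 FPM (log2FC -1.10, SE 0.26, edgeR FDR 0.0228), and lost its call without control replicates 2, 3 or 5 or treated replicates 1, 3 or 5 (log2FC of -1.37 to -0.999). Cps1, the entry enzyme of the urea cycle, had a log2FC of -0.30 (95% interval -1.17 to 0.57). Glul, glutamine synthetase, had a log2FC of 0.32 (95% interval -0.54 to 1.18). The methionine adenosyltransferases Mat1a, of adult liver, and Mat2a, of other tissues, had log2FC of 0.31 (edgeR FDR 0.655) and 0.36 (edgeR FDR 0.523). Gluconeogenesis and adult glucose enzymes had 0 calls of 13 by both tools and 0 by DESeq2 alone, with Pck1 at a log2FC of 0.02 (95% interval -0.78 to 0.81). The 12 glycolytic isozymes of fetal liver and other tissues all had positive log2FC, with a median of 1.13 and 1 call (8.33%). That call was Ldhb, the heart-type lactate dehydrogenase subunit, with 1.81, 1.56, 1.89 and 1.72 FPM in controls and 7.77, 2.07, 16.1, 8.13 and 12.5 FPM in treated rats (log2FC 2.42, SE 0.45, edgeR FDR 0.00873). Hk2, the hexokinase of muscle and growing cells, had a log2FC of 1.31 (edgeR FDR 0.134). Pkm, the pyruvate kinase of non-hepatocytes, had a log2FC of 1.32 and was not called (edgeR FDR 0.0971).

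**Figure D4:**
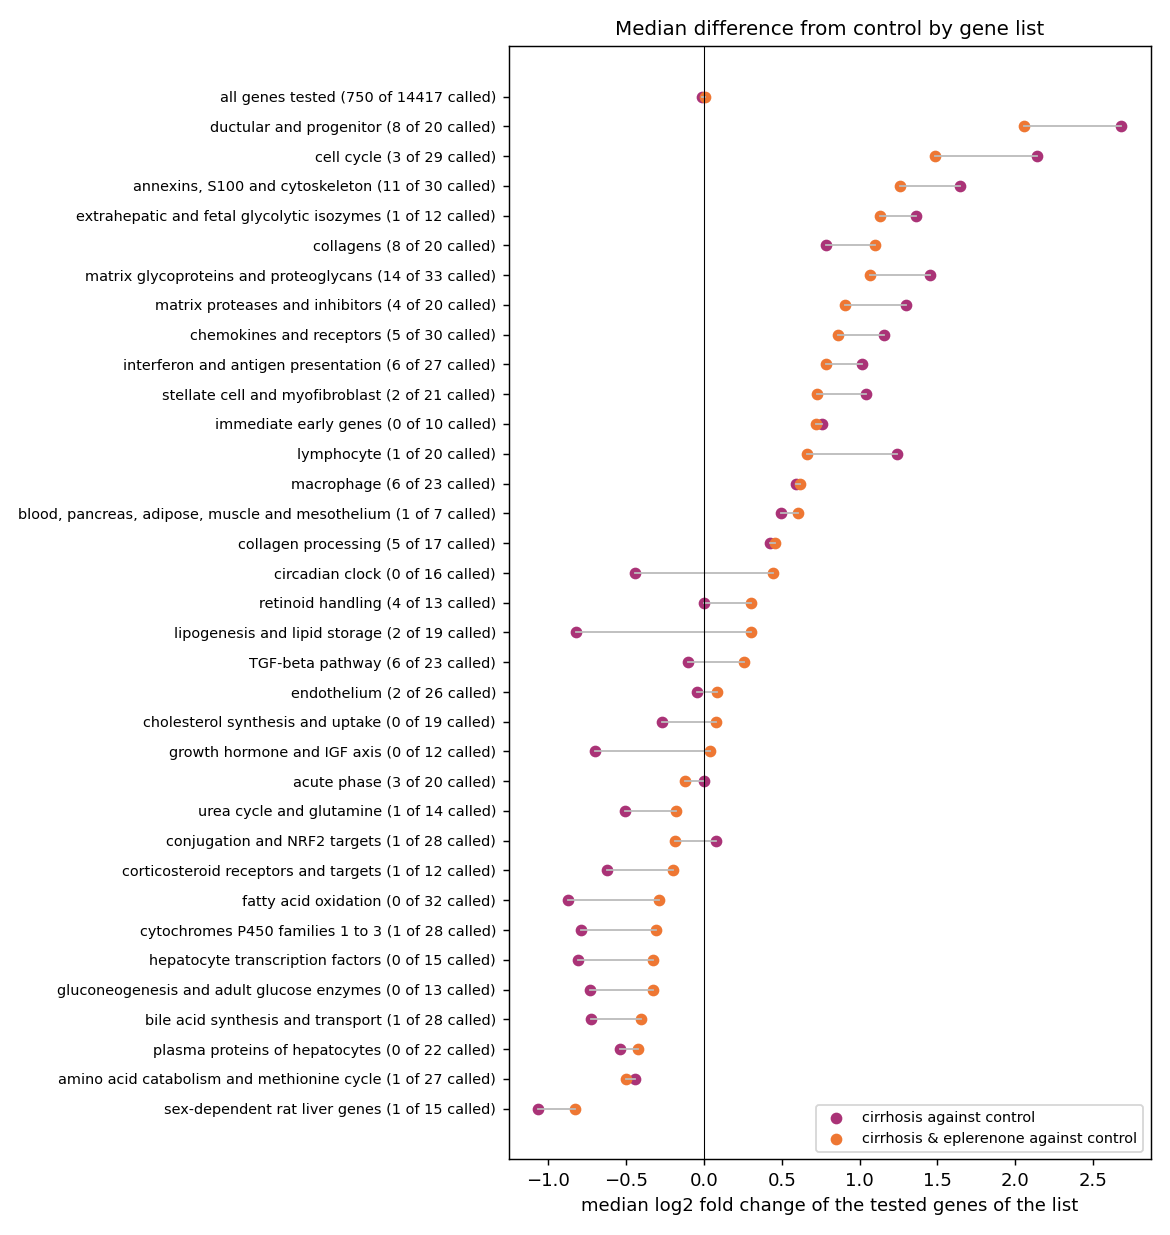
Median log2 fold change of the tested genes of each of 34 gene lists and of all 14417 genes (top), for cirrhosis & eplerenone against control (orange) and cirrhosis against control (purple), which share the 4 controls; labels give the number called in the former. The ductular list is highest, at 2.06 and 2.68, and the sex-dependent list lowest, at -0.83 and -1.07.

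Retinoid handling had 3 higher genes and 1 lower of 13, a share called of 30.8% beside 5.2% over all genes. Cyp26a1, which degrades retinoic acid and is itself a retinoic acid target, had 0.181, 0.289, 2.56 and 2.61 FPM in controls and 11.3, 26.3, 19.3, 9.93 and 22.1 FPM in treated rats. All treated livers, replicate 2 highest among them, lay above the controls (log2FC 3.66, SE 0.65, edgeR FDR 0.00709). Aldh1a1, which makes retinoic acid, had 56.2, 57.1, 39.6 and 62.9 FPM against 135, 159, 150.4, 184 and 147 FPM, an even rise (log2FC 1.52, SE 0.33, edgeR FDR 0.0151), and lost its call without control replicate 4 (edgeR FDR 0.0536). Aldh1a3, a related enzyme, was higher (log2FC 0.99, edgeR FDR 0.0376) and lost its call without each control or treated replicate 1, 2, 3 or 5. Rdh10, which oxidizes retinol, was lower (log2FC -0.78). Lrat, which esterifies retinol for storage in stellate cells, had 17.1, 12.3, 18.1 and 20.2 FPM against 20.6, 44.5, 8.10, 30.4 and 18.4 FPM and was not called (log2FC 0.53, 95% interval -0.52 to 1.57). Calls fell to 1 without control replicate 4.

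The Cyp26a1 promoter is printed because it holds a known type of retinoic acid response element, a direct repeat of AGTTCA spaced by 5 bases. The RefSeq window at chr1:244883572-244883871 (+ strand) in GRCr8 carries it on the reverse strand, in capitals, starting 92 bases before the gene start. The repeat, searched on both strands with any 5 bases between its copies, was in 3 of 33469 promoters, 0.00896%. It was in 2 of the 10064 promoters of tested genes, 1 of the 419 of higher DEGs and 0 of the 82 of lower DEGs. Only the letters AGTTCA, as they stand in this gene, were searched. The rarity is thus that of these letters and not of looser forms of the element. In these letters the finding is a description, and binding was not measured.
Cyp26a1: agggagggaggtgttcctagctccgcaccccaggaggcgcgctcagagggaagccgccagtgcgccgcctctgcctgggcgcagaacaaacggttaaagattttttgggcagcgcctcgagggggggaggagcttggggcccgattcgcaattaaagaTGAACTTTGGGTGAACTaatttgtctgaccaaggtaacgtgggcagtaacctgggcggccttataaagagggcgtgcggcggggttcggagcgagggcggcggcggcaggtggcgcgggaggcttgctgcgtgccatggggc

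Acute phase genes, which the liver raises in inflammation, gave 2 higher and 1 lower of 20, a share called of 15% beside 5.2% over all genes. Lcn2, the siderophore-binding lipocalin, had the largest log2FC of the called coding genes whose groups did not overlap and averaged at least 1 FPM in both, with 2.05, 0.810, 1.65 and 0.636 FPM in controls and 24.992, 2.50, 100.67, 8.01 and 20.7 FPM in treated rats. Replicate 3 was far above the rest and replicate 2 just above the highest control (log2FC 4.60, SE 1.06, edgeR FDR 0.0215). Its call was lost without each control or treated replicate 3, with log2FC of 3.45 to 4.92. Lbp, which presents bacterial lipopolysaccharide, had 81.2, 59.8, 81.8 and 143 FPM against 416, 141, 461, 269 and 350.1 FPM, touching at replicate 2 (log2FC 1.84, SE 0.40, edgeR FDR 0.0159), and lost its call without control replicates 2, 3 or 4 (highest edgeR FDR 0.0625). Apcs, serum amyloid P, was lower in every treated rat, least so in replicate 2, at 1092, 1013, 1064 and 995 FPM against 545, 784, 591, 578.18 and 575 FPM (log2FC -0.76, SE 0.17, edgeR FDR 0.0163), and lost its call without control replicate 5 (edgeR FDR 0.0537). Hp, haptoglobin, had a log2FC of 0.16 (95% interval -0.40 to 0.72).

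Of 12 corticosteroid receptor genes and targets tested, 1 was called, a share of 8.33% beside 5.2% over all genes. Hsd11b2, the enzyme that keeps cortisol-like steroids off the MR, was lower, at 1.63, 3.12, 3.79 and 5.22 FPM in controls and 1.12, 1.88, 0.324, 0.847 and 1.04 FPM in treated rats, overlapping at replicate 2 (log2FC -1.73, SE 0.46, edgeR FDR 0.0422). The call was lost in 9 of 14 fits, without control replicates 3, 4 or 5, cirrhosis replicates 1 or 3 or treated replicates 1, 3, 4 or 5 (log2FC of -2.05 to -1.46). Nr3c2, the gene of the MR, had 0.181, 0.983, 0.366 and 0.827 FPM in controls and 0.307, 1.13, 0.364, 0.621 and 0.109 FPM in treated rats, ranges that overlapped, and was not called (log2FC -0.24, 95% interval -2.00 to 1.53). Nr3c1, the glucocorticoid receptor, had a log2FC of -0.16 (95% interval -0.84 to 0.52).

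Clock genes had 0 calls of 16 (2 by DESeq2 alone) and a wide spread among the treated livers. Dbp, a clock output factor, had 16.8, 5.44, 3.48 and 2.35 FPM in controls and 187, 257, 23.7, 9.09 and 33.7 FPM in treated rats. Replicates 1 and 2, both of label number 15, stood far above the other treated livers. In the cirrhosis rats the label numbers did not divide in this way: Dbp was at 10.5, 8.20 and 8.85 FPM in the 3 rats of number 15 and at 182 and 5.59 FPM in the 2 of number 20. Arntl, the core activator BMAL1, had 19.7, 37.5, 30.7 and 35.9 FPM against 0.971, 4.57, 12.6, 20.4 and 10.2 FPM, lowest in the same replicates. Tests gave log2FC of 3.86 (edgeR FDR 0.0932) for Dbp and -1.67 (edgeR FDR 0.171) for Arntl. The hours at which livers were taken are not given in the sources used here, and the part of the clock in other differences was not tested. Immediate early genes had 0 calls of 10 (1 by DESeq2 alone), with Fos at a log2FC of -0.30 (95% interval -1.57 to 0.98) and Egr1 of 0.68 (95% interval -0.33 to 1.69). In the list of blood, pancreas, adipose, muscle and mesothelium genes, 1 of 7 was called (14.3%, beside 5.2% over all genes). That gene, Msln or mesothelin, had 3.80, 3.53, 7.45 and 4.13 FPM against 9.51, 7.51, 36.4, 9.54 and 19.0 FPM (log2FC 1.80, SE 0.49, edgeR FDR 0.0449). It lost its call without each control, cirrhosis replicates 1, 2 or 4 or treated replicates 3 or 5 (log2FC of 1.28 to 2.10). Hbb had a log2FC of 0.36 (95% interval -1.25 to 1.97).

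Other large rises, within the same limits as for Lilrb4, were Serpinb1a, Bok and Ckap4. Serpinb1a, an inhibitor of neutrophil proteases, had 1.21, 1.27, 2.20 and 1.34 FPM in controls and 19.3, 5.26, 39.7, 8.97 and 19.9 FPM in treated rats (log2FC 3.63, SE 0.63, edgeR FDR 0.0059). Bok, a BCL2-family protein of cell death, had 1.57, 1.04, 0.916 and 1.27 FPM against 11.4, 2.88, 21.9, 12.0 and 25.9 FPM (log2FC 3.62, SE 0.64, edgeR FDR 0.00633). Ckap4, a membrane protein of the endoplasmic reticulum, had 2.05, 0.925, 1.40 and 0.827 FPM against 9.20, 5.44, 19.8, 18.3 and 19.6 FPM (log2FC 3.47, SE 0.56, edgeR FDR 0.0041). In all 3 genes the lowest treated liver was above the highest control. Their log2FC between cirrhosis and control, which shares the controls, were 5.44, 5.64 and 3.53, and directly against cirrhosis -1.81, -2.01 and -0.06, none of them called. In the latter comparison Serpinb1a and Bok passed DESeq2 alone (FDR 0.0458 and 0.0194) but not edgeR (FDR 0.312 for both), and Ckap4 passed neither.

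Falls were smaller and fewer. Among called coding genes without overlap and with at least 1 FPM in both groups, Dnase2b, an acid DNase, fell the most, from 13.6, 14.3, 10.3 and 6.68 FPM in controls to 1.79, 3.07, 1.30, 1.92 and 2.02 FPM in treated rats (log2FC -2.48, SE 0.35, edgeR FDR 0.00289). Cabp2, a calcium-binding protein best known from sensory cells, had 375, 259, 316 and 248 FPM against 30.7, 94.9, 67.8, 92.5 and 67.5 FPM (log2FC -2.08, SE 0.27, edgeR FDR 0.00217). It was called in all 25 alternative settings, and replicate 1 was the lowest of the treated livers. Plk2, a stress-responsive kinase, had 196, 56.0, 72.8 and 245 FPM against 37.8, 36.7, 40.2, 28.3 and 29.1 FPM (log2FC -2.05, SE 0.40, edgeR FDR 0.0106). The controls differed widely for Plk2 and the treated rats hardly at all. Phf19, a Polycomb accessory protein, had 36.5, 24.5, 8.91 and 8.65 FPM against 2.35, 5.07, 3.52, 5.14 and 3.82 FPM (log2FC -2.30, SE 0.41, edgeR FDR 0.00653), and Dab1, an adaptor of reelin signaling, 5.07, 8.90, 19.5 and 13.1 FPM against 1.12, 3.69, 2.06, 3.10 and 1.69 FPM (log2FC -2.32, SE 0.48, edgeR FDR 0.0134). Irs3, an insulin receptor substrate of rodents, was lower (log2FC -2.21, SE 0.50, edgeR FDR 0.02) and lost its call without control replicate 3 or treated replicate 3 (highest edgeR FDR 0.0807). X5330417C22Rik (log2FC -2.21, SE 0.56, edgeR FDR 0.0314) lost its call without each control or treated replicates 1, 3 or 5. LOC102551539 and LOC100125368 (log2FC -2.19, SE 0.44, edgeR FDR 0.0113 for the former, log2FC -2.16 for the latter) moved in parallel in every liver, so their reads may be shared and their separate values are uncertain.

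**Figure D5:**
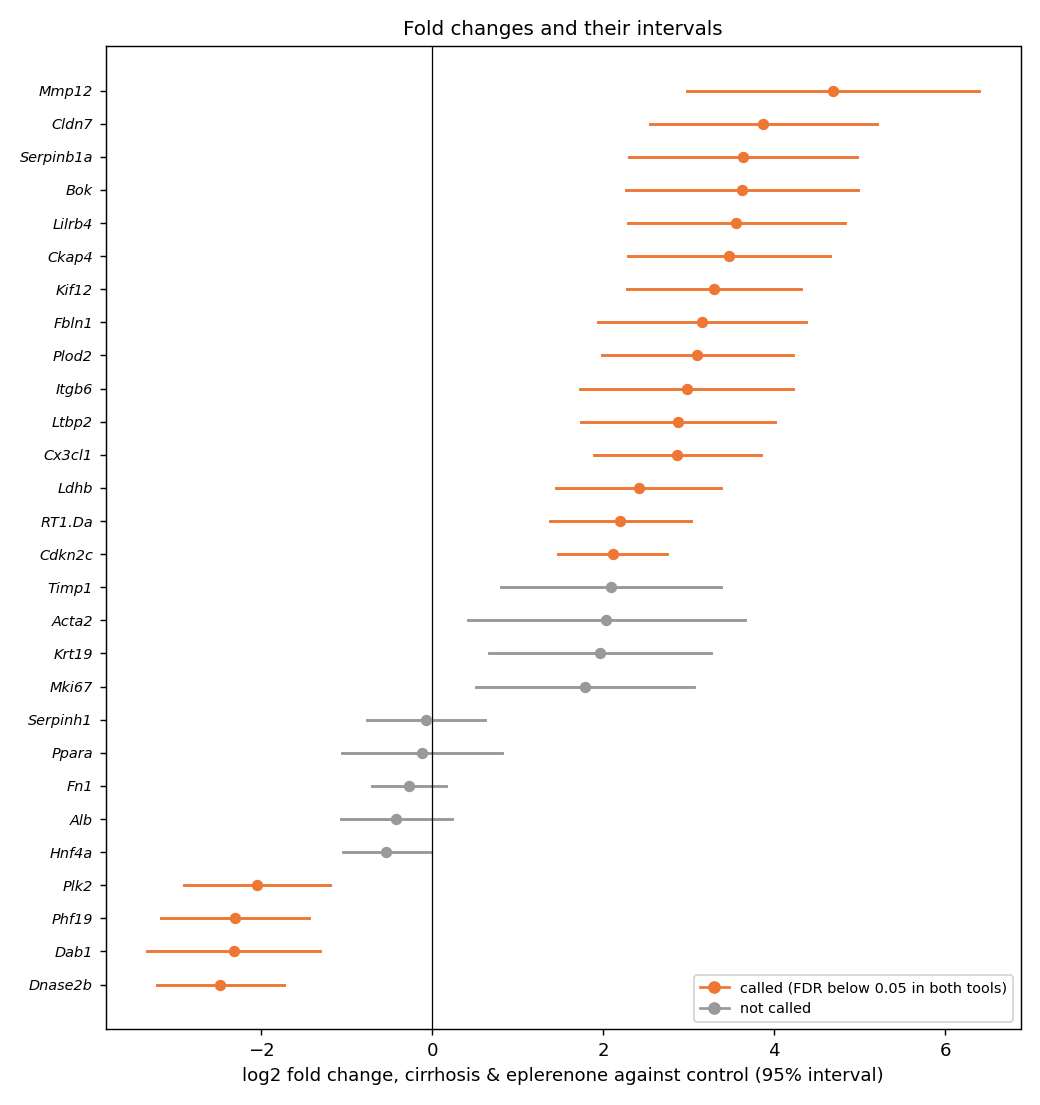
Log2 fold change between cirrhosis & eplerenone and control with its 95% interval for 28 genes, orange where the gene was called and grey where it was not. Acta2, Timp1, Krt19 and Mki67 have intervals above 0 but were not called, while Serpinh1, Ppara, Fn1 and Alb have intervals that include 0.

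Among genes of other biotypes, AABR07068316.1 was higher, at 12.2, 12.4, 11.8 and 8.84 FPM in controls and 22.7, 22.8, 39.4, 21.3 and 29.0 FPM in treated rats (log2FC 1.26, SE 0.26, edgeR FDR 0.0134), and lost its call without control replicate 5 (edgeR FDR 0.0572). AABR07069728.1, a lincRNA on chromosome 8 of rn6, had 91.5, 17.3, 13.9 and 42.5 FPM against 0.767, 2.57, 0.121, 0.564 and 1.15 FPM (log2FC -5.36, SE 1.10, edgeR FDR 0.0135). AABR07048482.1, annotated as an unprocessed pseudogene on chromosome 5, fell from 63.7, 53.5, 42.0 and 42.5 FPM to 0.409, 0.939, 0, 4.06 and 0.0546 FPM (log2FC -5.56, SE 1.22, edgeR FDR 0.0163). Pseudogene counts are uncertain where reads also map to the parent gene, and its call was lost without each control or treated replicate 1 or 5 for lack of a call by both tools, since its edgeR FDR stayed at or below 0.0498.

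Directly against cirrhosis, 2 genes were called by edgeR and DESeq2 together, 0.0139% of those tested (74, or 0.513%, by DESeq2 alone, and 2076, or 14.4%, at an unadjusted edgeR p under 0.05). Both were higher under eplerenone. The count was 0 without cirrhosis replicate 1 or 4, treated replicate 4 or with the replicate block, 1 without cirrhosis replicate 3 or treated replicate 1 or 2, and 26 without cirrhosis replicate 5. Gemin6, a subunit of the complex that assembles spliceosomal particles, had 2.22, 3.14, 3.61, 2.72 and 3.93 FPM in cirrhosis replicates 1 to 5 and 9.61, 17.8, 10.2, 12.9 and 13.9 FPM under eplerenone (log2FC 2.04). Ehd3, a membrane-trafficking ATPase of sinusoidal endothelium, had 15.1, 17.8, 13.1, 11.2 and 18.3 FPM against 49.1, 43.7, 32.2, 37.5 and 35.8 FPM (log2FC 1.39). Against control, which had 12.7, 19.6, 24.1 and 10.6 FPM of Gemin6 and 28.7, 36.9, 32.9 and 51.5 FPM of Ehd3, the treated livers gave log2FC of -0.38 (95% interval -0.94 to 0.18) and 0.08 (95% interval -0.34 to 0.51). The treated range of both genes overlapped the controls, and a gene that is not called against control is not thereby shown to be equal to it.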

How the data were processed

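Liver RNA of male rats, 5 per group by the labels, was selected for poly(A) and sequenced by the authors as paired reads of 150 bases. Per the submitters' processing notes and the study's methods, reads were aligned with HISAT2 2.1.0 to rn6 and counted over exons with featureCounts, with reads that mapped to several places counted at each, and the authors deposited raw counts per gene. The strand setting is not given in the sources used here, so overlapping and antisense genes cannot be told apart. Groups came from the sample labels. Control replicate 1 is not analysed here; the study states that it left out 1 control that stood apart in a principal component analysis.

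Counts were filtered (edgeR filterByExpr, minimum count 10), scaled by trimmed mean of M values, and fitted over all 3 groups with edgeR 4.0.16 quasi-likelihood and DESeq2 1.42.0 Wald tests (R 4.3.3), with Benjamini-Hochberg adjustment over the genes tested. A gene was called where both FDR were below 0.05. Log2FC are from edgeR, and each SE was worked back from the log2FC and the F statistic of its test. The intervals rest on that SE. A prior count of 2 entered only the log2 levels behind the principal components, the list means and the distances of single rats from the control mean. All p-values are two-sided and measure only the spread between these rats. Counting intervals are exact, at 95%, and cover counting error only. The steps were tested on simulated data for cirrhosis & eplerenone against control (14082 genes): 21% of 100 genes changed 2-fold and 74% of 100 changed 4-fold were recovered, with 4 false calls among 99. The changed genes were drawn only from those above a minimum total count, so the recovery of low-count genes was not simulated.

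Genes were named by rule: the 10 largest rises and falls of called coding genes whose groups did not overlap and averaged at least 1 FPM in both, the 2 largest rises and falls of other biotypes, the first 2 members of each list with its 3 largest called changes, and genes called against cirrhosis. Some genes that the rule includes are not reported here. The comparison, members and lists were chosen with earlier results of these data known. Alternatives covered the tools, scaling, low-count filter, samples fitted, label numbers, a replicate block and each liver left out. Controls and treated rats shared the replicate numbers 2 to 5, but deviations of same-numbered rats correlated at -0.0887, -0.0732, -0.0368 and -0.179, so the numbers were not taken as pairs. No 2 libraries agreed within sampling noise. Promoters came from RefSeq (GRCr8). Plots were drawn with matplotlib 3.10.9.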

Additional observations from a re-analysis of the deposited data

Results flagged for a closer look

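Dixon's limit was applied to groups of 4 controls or 5 treated rats. In 25 of the 254 groups tested, 1 liver stood apart from the nearest other by more than this limit. Normally distributed, independent values would do so in about 1 of 20 groups. Linear FPM of related genes need not behave so, and the count cannot be judged against that rate. The control flags of Timp4 and Trem2 rest on 1 read among zeros, which always exceeds the limit. Treated replicate 3 accounted for 9 of the 25. Values are in FPM. Treated replicate 3 had the highest value of Lcn2 at 100.7 (nearest 24.99), Lilrb4 at 32.7 (nearest 12.2), Ccn2 at 179 (nearest 39.2), Col5a3 at 7.89 (nearest 2.68), Mmp2 at 45.9 (nearest 32.7), Gpnmb at 69.7 (nearest 44.0), Mmrn1 at 25.5 (nearest 6.12), Gsta3 at 125 (nearest 39.6) and Lpl at 119.6 (nearest 31.8). Control replicate 3 had the highest value of Ccn2 at 6.88 (nearest 4.58), Trem2 at 0.0578 (nearest 0) and Fasn at 529 (nearest 192). Control replicate 4 had the highest value of Serpinb1a at 2.20 (nearest 1.34) and Msln at 7.45 (nearest 4.13). Control replicate 5 had the lowest value of AABR07068316.1 at 8.84 (nearest 11.8) and Loxl1 at 0.763 (nearest 2.26). Treated replicate 1 had the highest value of Cyp2b1 at 737 (nearest 53.7) and Nqo1 at 38.8 (nearest 13.4). Treated replicate 5 had the highest value of Hbb at 1114 (nearest 382) and Alas2 at 29.6 (nearest 6.39). Control replicate 2 had the highest value of Timp4 at 0.0603 (nearest 0). Control replicate 4 had the lowest value of Kmo at 121 (nearest 158). Treated replicate 2 had the highest value of Apcs at 784 (nearest 591). Treated replicate 2 had the lowest value of Ltbp2 at 5.95 (nearest 7.54). Treated replicate 4 had the highest value of AABR07048482.1 at 4.06 (nearest 0.939).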

How the results depend on the processing

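Against 750 DEGs (624 higher, 126 lower, 666 at least 2-fold, 83.2% higher, 95 list entries, 74 of the named genes), DESeq2 alone gave 1523 (1217, 306, 1225, 79.9%, 181) and 74 against cirrhosis in place of 2. Total-count scaling gave 1348 (1281, 67, 1158, 95.03%, 156). Requiring at least 10 counts in every sample, which tests fewer genes, gave 377 (308, 69, 332; 60 list entries, 44 named). Fitting the controls and treated rats alone gave 782 (599, 183, 663, 76.6%, 110, 71 named), of which 616 were among the 750. Of the 750 genes, 702 passed the low-count filter in that fit. Treated rats of label number 15 gave 97 (76, 21, 95, 78.4%, 11, 12 named), those of number 20 gave 1225 (960, 265, 1073, 78.4%, 156), and controls of number 16 gave 415 (344, 71, 396; 52 list entries, 49 named). A replicate block, fitted although the numbers do not pair the rats and no treated rat correlated best with the control of its own number, gave 110 (95, 15, 109, 86.4%, 17, 21 named), 0 against cirrhosis and 1137 in place of 2898 for cirrhosis against control. Leaving out 1 liver gave 220 to 1273 DEGs, 180 to 994 higher, 40 to 279 lower, 210 to 1095 at least 2-fold, 78.1% to 88.1% higher, 28 to 153 list entries, 38 to 74 named genes, 0 to 26 against cirrhosis and 1360 to 4598 for cirrhosis against control. The cause of these shifts was not tested. Of the 74 named DEGs, 33 kept their call in every fit without 1 liver and 0 reversed in the 25 settings, and 13 of the 57 named genes that were not called passed in at least 1 setting. At this depth and number of rats, changes near 2-fold were recovered in 21% of simulated cases, which left out low-count genes. A gene that was not called may therefore still differ.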
